A study of Homo sapiens with 9 samples.

Results

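The collagen crosslinking and hydroxylating enzymes comprise 10 human genes in 3 families: the lysyl oxidases LOX, LOXL1, LOXL2, LOXL3 and LOXL4, the lysyl hydroxylases PLOD1, PLOD2 and PLOD3, and the prolyl 4-hydroxylase alpha chains P4HA1 and P4HA2. They were taken by symbol, and all 10 of them were found among the 62709 genes of the count data. RNA was sequenced from hTERT-MSC, an adipose-derived human mesenchymal stem cell line immortalised with telomerase. Cells starved of serum overnight were seeded on uncoated inserts with 3 µm pores and left to settle for 2 h. PDGF-BB, a chemoattractant for mesenchymal cells, was then put into the lower well at 50 ng/mL for 1 h. Pseudopodia, the processes that had passed through the pores, were collected from the underside of the insert, and cell bodies from the upper side. Whole cells bear the same treatment label, and how they were collected is not described separately. There were 3 libraries per group, all from 1 cell line and all labelled with the PDGF-BB treatment. Unstimulated cells were not analysed here. Whether the 3 libraries of a group are separate cultures is not labelled, and the p-values below reflect a spread between libraries that may be technical only.

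Fibrillar collagen chains are modified while they enter the endoplasmic reticulum (ER). Prolyl 4-hydroxylase, built from an alpha chain (P4HA1 or P4HA2) and protein disulphide isomerase (P4HB), makes the 4-hydroxyproline that holds the triple helix together at body temperature. Lysyl hydroxylases turn lysines into hydroxylysines, which carry sugars and form the more stable crosslinks. PLOD2 acts on the telopeptides at the chain ends, and PLOD3 also has glycosyltransferase activity. Lysyl oxidases are secreted copper enzymes that oxidise lysine and hydroxylysine side chains outside the cell, which starts covalent crosslinking of collagen and elastin. The hydroxylases need iron, ascorbate and 2-oxoglutarate, and several of these genes, LOX, PLOD2, P4HA1 and P4HA2 among them, are known targets of hypoxia-inducible factors. Stromal cells of connective tissue secrete collagen and express these enzymes.

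The 10 mRNAs share an entry route to the ER: each protein begins with a signal sequence. The hydrophobic core of a signal sequence can appear at the start of the coding sequence as a run of codons with T in the middle. Such codons encode phenylalanine, leucine, isoleucine, methionine or valine. The first 25 codons of 9 of them are shown 5′ to 3′ on the coding strand, from GENCODE release 29 transcripts on GRCh38, with every middle-T codon in capitals.
LOX: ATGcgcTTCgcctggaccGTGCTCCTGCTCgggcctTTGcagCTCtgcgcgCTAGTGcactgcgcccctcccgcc
LOXL1: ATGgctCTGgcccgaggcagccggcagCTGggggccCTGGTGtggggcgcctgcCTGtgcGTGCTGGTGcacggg
LOXL3: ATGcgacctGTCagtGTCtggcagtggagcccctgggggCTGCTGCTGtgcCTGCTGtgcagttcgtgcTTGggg
LOXL4: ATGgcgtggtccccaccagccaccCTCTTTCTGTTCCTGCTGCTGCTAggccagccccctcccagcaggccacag
PLOD1: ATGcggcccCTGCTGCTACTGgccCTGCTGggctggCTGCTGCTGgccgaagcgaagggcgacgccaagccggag
PLOD2: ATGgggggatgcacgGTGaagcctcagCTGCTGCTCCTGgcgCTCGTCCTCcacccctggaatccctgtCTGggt
PLOD3: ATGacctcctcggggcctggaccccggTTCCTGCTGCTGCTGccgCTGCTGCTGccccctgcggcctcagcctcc
P4HA1: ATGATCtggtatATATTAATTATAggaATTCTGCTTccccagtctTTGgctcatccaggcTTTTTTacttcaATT
P4HA2: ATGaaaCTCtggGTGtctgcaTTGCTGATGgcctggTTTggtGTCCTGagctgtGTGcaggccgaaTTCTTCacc

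LOXL4 and PLOD3 carried the densest runs, with 8 middle-T codons in a stretch of 10. In LOXL1 and LOXL3 the densest stretch of 10 held 5. Over the 10 enzymes the median was 6.5 per stretch of 10 codons, against 4 over the 13923 tested genes with a coding sequence in the annotation. All 10 enzymes reached 5 per stretch, as did 40.2% of all those genes. The 8 dioxygenases that work outside the ER did not reach it, with a median of 2 per stretch. They share the chemistry of the lysyl and prolyl hydroxylases, not that of the lysyl oxidases. The bar of 5 was set after these values had been seen.

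On GRCh38, with GENCODE release 29 gene bounds, LOX spans chr5:122063195-122078360 on the minus strand and P4HA2 spans chr5:132191838-132295315, also minus. LOXL1 is at chr15:73925989-73952137 on the plus strand, and LOXL3 at chr2:74532414-74555690 on the minus strand. LOXL4 and P4HA1 are both on chromosome 10, minus strand, at chr10:98247690-98268250 and chr10:73007217-73096974. PLOD1 is at chr1:11934205-11975538 (plus), PLOD2 at chr3:146069440-146163653 (minus) and PLOD3 at chr7:101205977-101218420 (minus). Counts are given per gene, so the values below do not separate isoforms.

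Library totals ran from 55469030 to 83894938 counts, and the lowest count behind any value of an enzyme was 859, for LOXL3 in a pseudopodia library. Values per library are CPM (normalised read counts relative to the library total, with edgeR's TMM factors applied). The libraries of a group differed most in pseudopodia: the biological coefficient of variation over all genes was 33% there, 17.6% in cell bodies and 5.08% in whole cells. All 7 mesenchymal markers looked for (NT5E, THY1, ENG, CD44, ALCAM, PDGFRB and VIM) were present in every library. Of these, 6 were called lower in pseudopodia than in cell bodies and 0 higher, and their summed level was 3634 to 5059 CPM in pseudopodia, 7999 to 8060.4 in cell bodies and 6014 to 6373 in whole cells. Of all genes tested, 19.9% were called lower and 18.6% higher between those groups. The part of these markers in the results below was not tested. Of the defining markers of other cell types, PTPRC and ITGAM stayed at or below 0.408 CPM, FABP4 was at 0 in all libraries, and ADIPOQ and EPCAM did not exceed 0.0332 and 0.0646 CPM. Other markers on those lists were present: KRT14 at 14 to 26.3 CPM, called higher in both fractions than in whole cells, and KRT5 at 1.17 to 1.99 CPM. CD14 was at 3.53 ± 0.666 CPM in pseudopodia, 11.5 ± 1.2 in cell bodies and 2.37 ± 0.201 in whole cells. Of the adipocyte markers, LEP was called higher in pseudopodia than in both other groups, at no more than 0.347 CPM. LPL was called lower in pseudopodia than in both other groups, at no more than 0.452 CPM. PLIN1, at no more than 1.13 CPM, was not called against cell bodies and was called lower than in whole cells. CD34, a haematopoietic and endothelial marker that fat-derived stromal cells can carry, was present at 60.6 to 77.4 CPM, with the groups overlapping. Of the 4 smooth muscle markers, MYH11, CNN1 and DES were called higher in pseudopodia than in cell bodies at 13.7 CPM or less, and the list summed to 36.5 to 45.1 CPM in pseudopodia and 38.3 to 39 CPM in cell bodies. Endothelial markers summed to 63.8 to 80.1 and 76.1 to 107 CPM, with VWF called higher and CDH5 and TEK lower. The fractions are told apart by RAB13, an mRNA known to be carried into protrusions, which was at 449 ± 46.5 CPM in pseudopodia and 20.3 ± 2.37 CPM in cell bodies (mean ± SD, n = 3 each). The libraries are bulk RNA scaled to their own totals, so fewer cell parts with an mRNA and less of it in each cannot be told apart.

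In pseudopodia the mRNAs of all 3 enzyme families were scarcer than in cell bodies, and none was enriched. Relative to cell bodies, 9 of the 10 enzymes were called lower and 0 higher, and 19.9% of all 19426 genes tested were called lower (edgeR's quasi-likelihood test, Benjamini-Hochberg adjusted p under 0.05). The tenth, PLOD2, had values below all cell-body libraries and missed the threshold. The median log2 fold change of the 10 enzymes was -1.55, against -0.05 over all genes tested. A fall of 2-fold or more was called for 7 enzymes and for 12.3% of all genes. For each of the 10 enzymes, every pseudopodia library lay below every cell-body library, an ordering that 24.5% of all genes showed.

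**Figure D1:**
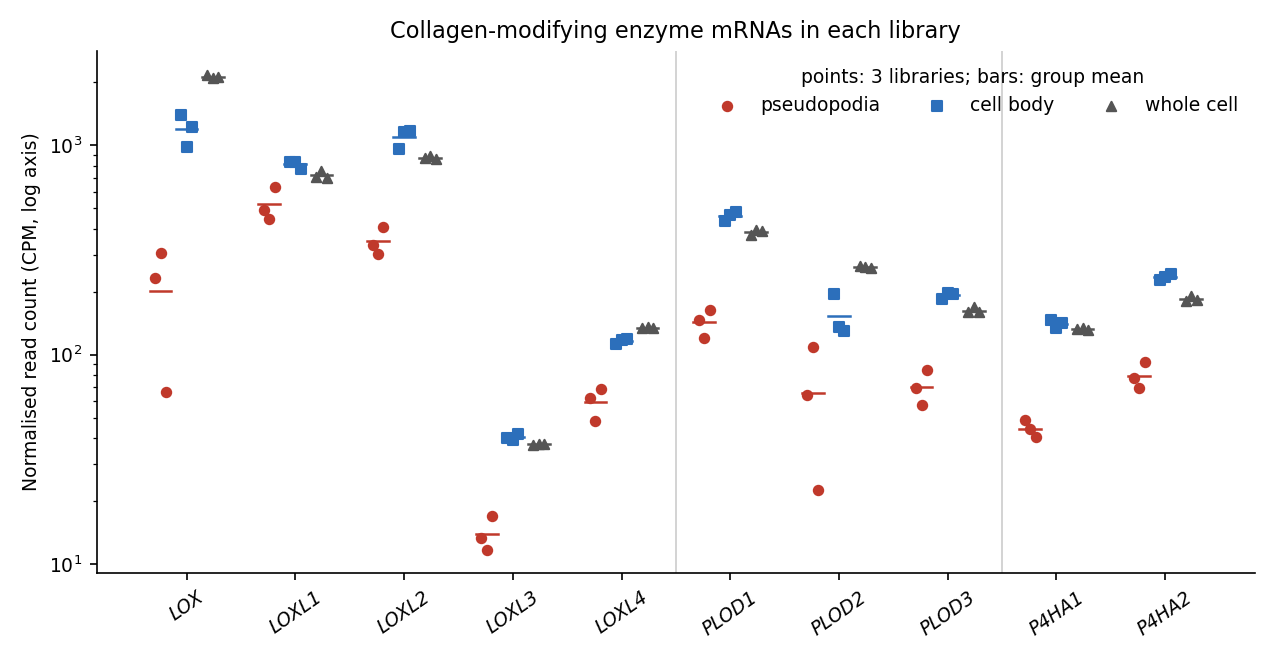
Normalised read count (CPM, log axis) of each enzyme mRNA in the 9 libraries; points are libraries, bars are means of 3, and grey lines separate the families. The red pseudopodia points lie below the blue cell-body points for all 10 genes, and those of LOX and PLOD2 are the most scattered.

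Among the lysyl oxidases, LOX had the deepest fall. LOX, which gives its name to the family and acts on fibrillar collagen and elastin, was at 233, 307 and 66.1 CPM in the 3 pseudopodia libraries, 1397, 979 and 1227 CPM in cell bodies, and 2180.3, 2095 and 2112 CPM in whole cells. The 3 groups did not overlap, and pseudopodia library 3 was well below the other two. LOX was 5.95-fold lower in pseudopodia than in cell bodies (log2 fold change -2.57 ± 0.458 SE, edgeR adjusted p = 0.00194).

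LOXL1, a partner of elastin assembly, had the smallest fall of the 10, a rank that did not hold with the GC and length correction described below. It was at 489.6, 446 and 632 CPM in pseudopodia, 837, 833 and 768 CPM in cell bodies, and 706, 750.0 and 699 CPM in whole cells. The highest pseudopodia library was below the lowest cell-body library, although by a small margin. LOXL1 was 1.56-fold lower than in cell bodies (log2 fold change -0.64 ± 0.14 SE, edgeR adjusted p = 0.00395).

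LOXL2, which crosslinks collagen IV of basement membranes, was at 335, 304 and 409 CPM in pseudopodia, 958, 1154 and 1167 CPM in cell bodies, and 866, 887 and 858 CPM in whole cells. The groups were far apart, with a fall of 3.13-fold against cell bodies (log2 fold change -1.65 ± 0.141 SE, edgeR adjusted p = 5.64e-06). LOXL3 was the least abundant of the family, at 13.3, 11.7 and 16.9 CPM in pseudopodia, 38.9 to 41.9 CPM in cell bodies and 37.1 to 37.6 CPM in whole cells. Its fall was 2.88-fold (-1.52 ± 0.148 SE, edgeR adjusted p = 1.39e-05). LOXL4 was at 62.1, 48 and 68.6 CPM in pseudopodia, 113 to 119 CPM in cell bodies and 134 to 135 CPM in whole cells. After LOXL1 it had the smallest fall of the called enzymes, 1.96-fold (-0.97 ± 0.138 SE, edgeR adjusted p = 0.000227).

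Of the 3 lysyl hydroxylases, 2 were called lower than in cell bodies. PLOD1, whose loss causes the kyphoscoliotic type of Ehlers-Danlos syndrome, was at 146, 119.8 and 164 CPM in pseudopodia, 435, 467 and 479 CPM in cell bodies, and 374, 394 and 389 CPM in whole cells. It was 3.21-fold lower than in cell bodies (log2 fold change -1.68 ± 0.134 SE, edgeR adjusted p = 3.55e-06), with a wide gap between the groups. PLOD3, which also adds glucose to collagen, was at 69.5, 57.5 and 84.2 CPM in pseudopodia, 185, 198 and 194 CPM in cell bodies, and 159, 169 and 159 CPM in whole cells. Its fall was 2.73-fold (-1.45 ± 0.144 SE, edgeR adjusted p = 1.59e-05).

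PLOD2, the telopeptide lysyl hydroxylase, was the exception to the calls against cell bodies. It was at 64.2, 109 and 22.6 CPM in pseudopodia, 195, 135 and 129 CPM in cell bodies, and 265, 261 and 260.0 CPM in whole cells. The pseudopodia libraries were spread over 4.84-fold, and the highest of them lay just under the lowest cell-body library. The log2 fold change against cell bodies was -1.22 ± 0.45 SE, with an edgeR adjusted p of 0.0586. Without pseudopodia library 2 the log2 fold change was -1.82 (edgeR adjusted p = 0.00509), and without pseudopodia library 3 it was -0.82 (0.0347). It passed in 8 of 18 alternatives, among them DESeq2 on all libraries (adjusted p = 0.00607), and missed the threshold in the other 10. Over all 18 the adjusted p ran from 0.000772 (limma-voom) to 0.219 (edgeR with no filter on low counts).

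Both prolyl 4-hydroxylase alpha chains fell. P4HA1, the main catalytic subunit in most cells, was at 48.6, 44 and 40.4 CPM in pseudopodia, 146, 134 and 142 CPM in cell bodies, and 132, 134 and 131 CPM in whole cells. Its libraries varied little within each group, and it was 3.17-fold lower than in cell bodies (log2 fold change -1.66 ± 0.116 SE, edgeR adjusted p = 1.45e-06). P4HA2, the isoform prominent in cartilage and bone, was at 77.1, 69 and 92.1 CPM in pseudopodia, 227, 235 and 244 CPM in cell bodies, and 181, 191 and 182 CPM in whole cells. It was 2.97-fold lower (-1.57 ± 0.129 SE, edgeR adjusted p = 4.34e-06), again with no overlap.

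Pseudopodia against whole cells gave lower calls for 10 of the 10 enzymes, where 33.1% of all genes tested were called lower 27.9% higher and 61.0% in either direction. This comparison shares its pseudopodia libraries with the one above and is no independent repeat of it. The median over the enzymes was -1.37 on the log2 scale, and -0.12 over all genes. For 9 enzymes the fall was 2-fold or more, which 24.7% of all genes reached, and LOXL1 was the one below that. LOX was 10.55-fold lower (log2 fold change -3.40 ± 0.475 SE, edgeR adjusted p = 0.000245), and PLOD2 was 4.0-fold lower (-2.0 ± 0.46 SE, edgeR adjusted p = 0.00446). LOXL1 had the smallest difference, -0.46 ± 0.139 SE (edgeR adjusted p = 0.0142). That call was lost without pseudopodia library 1 (edgeR adjusted p = 0.0601), whole-cell library 1 (0.0561) or whole-cell library 2 (0.0807). The other 7 enzymes were between 2.26-fold (LOXL4) and 2.98-fold (P4HA1) lower. No pseudopodia library reached a whole-cell library for any of the 10 enzymes, an ordering that 38.9% of all genes showed, while 31.1% showed the reverse one.

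Few of these mRNAs were called between cell bodies and whole cells. There, 1 of the 10 enzymes was called, and 38.6% of all genes tested were. P4HA2 was 1.27-fold higher in cell bodies (log2 fold change 0.35 ± 0.126 SE, edgeR adjusted p = 0.0475), close to the threshold. That call was lost with DESeq2 (adjusted p = 0.0511) and when any 1 of the 6 libraries was left out (0.0625 to 0.135). LOX and PLOD2 had the largest differences, both in the direction of less in cell bodies. For LOX the log2 difference was -0.83 ± 0.435 SE (edgeR adjusted p = 0.164), and for PLOD2 it was -0.78 ± 0.445 SE (0.198). In the fit of these 6 libraries alone, without the pseudopodia and their wider spread, both passed (LOX -0.80, edgeR adjusted p = 0.00137, and PLOD2 -0.74, 0.00524), and 7 enzymes were called in all, as were 57.0% of all genes in that fit. In CPM, LOX, PLOD2 and LOXL4 lay lower in every cell-body library than in any whole-cell library, and the other 7 enzymes lay higher in every one. Those orderings were shown by 34.9% and 30.0% of all genes. The split depended on the scaling. In the deposited TPM, P4HA1 lay lower in every cell-body library (176 to 194 against 196 to 205 in whole cells), and LOXL1 and LOXL3 overlapped. In whole cells LOX, PLOD2 and LOXL4 thus lay above both fractions and not between them, with means of 2129, 262 and 134 CPM. Why was not tested, and their falls against whole cells are not given here as a measure of location.

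**Figure D2:**
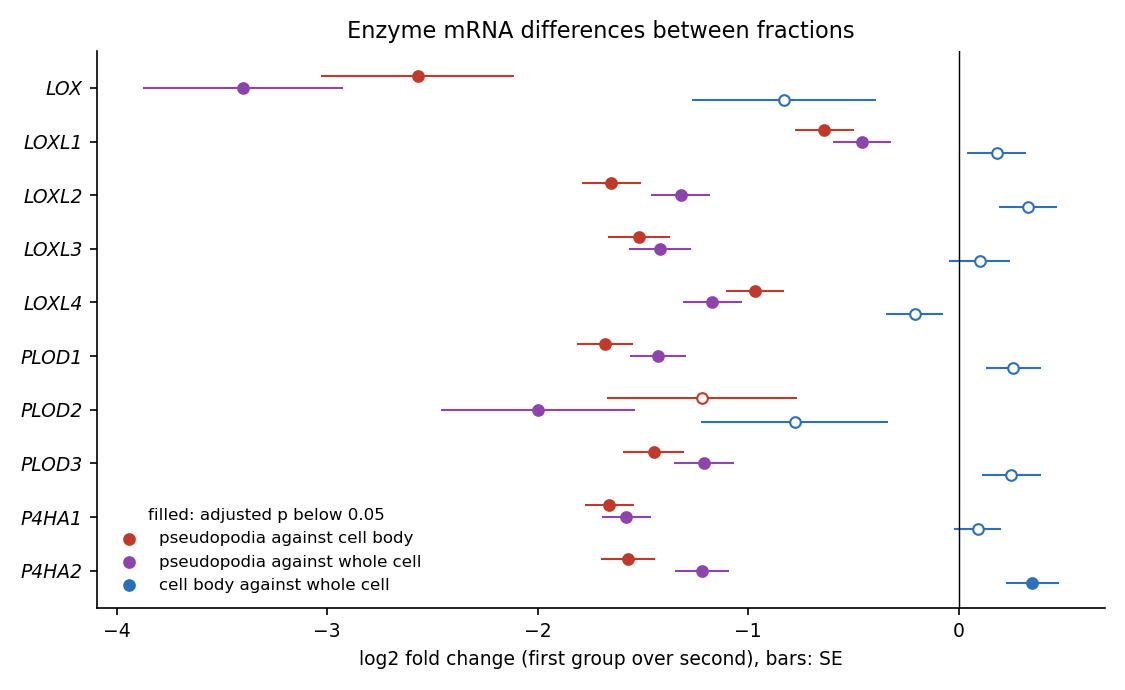
Log2 fold change of each enzyme in the 3 comparisons, with bars for the SE and filled points where the edgeR adjusted p was below 0.05. LOX reaches -2.57 and -3.40 in the pseudopodia comparisons, LOXL1 stays nearest to 0 at -0.64 and -0.46, and the open red point is PLOD2.

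The 3 pseudopodia libraries did not place the enzymes in the same order. Relative to the cell-body mean, LOX stood at 19.4%, 25.5% and 5.5% in pseudopodia libraries 1, 2 and 3, and PLOD2 at 42%, 71.6% and 14.8%. Both were highest in library 2 and lowest in library 3. The reverse order was seen for LOXL1, LOXL2, LOXL3, LOXL4, PLOD1, PLOD3 and P4HA2, all 7 of which were highest in library 3 and lowest in library 2. Their highest library exceeded the lowest by 1.33-fold to 1.46-fold. P4HA1 varied by 1.2-fold and was highest in library 1.

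Transcript base composition moved with this order. LOX, PLOD2 and P4HA1 have GC contents of 39.6%, 37.6% and 40.9% in their principal transcripts. These are below the median of 49.3% over the 13923 tested genes with a coding sequence. The other 7 run from 49.1% (P4HA2) to 67% (LOXL1). Over 18675 genes, the GC content of the longest transcript of each gene was used instead. With it the deviation from the group mean went in opposite directions in pseudopodia library 2 (Pearson r across genes = -0.558) and library 3 (0.567). Deviations of a gene cancel out within its group by construction, so the opposite signs are not separate observations. In library 1 and the 6 other libraries, r was between -0.13 and 0.0689. Genes are not independent replicates, so no p is given.

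GC content and length of the longest transcript were also fitted for each library, an alternative added after these values were seen. The fit used each gene's deviation from its mean over all 9 libraries. The correction therefore also removes any difference between groups that follows GC content or length. Whether what it removed was technical was not tested. With that correction 10 of 10 enzymes were called lower in pseudopodia than in cell bodies, as were 22.0% of all genes. LOX then had a log2 fold change of -2.38 and LOXL1 one of -0.95. The value for PLOD2 shrank to -0.76 and passed (edgeR adjusted p = 0.00715), and P4HA1 was at -1.14. Against whole cells, the correction took LOX to -2.68, PLOD2 to -0.71 (edgeR adjusted p = 0.00645) and P4HA1 to -0.69 (0.00229), and all 10 enzymes were called lower, as were 31.4% of all genes. With the correction the smallest falls were those of PLOD2 against cell bodies and P4HA1 against whole cells, in place of LOXL1. Between cell bodies and whole cells it took LOX to -0.30 and PLOD2 to 0.05, neither of which passed (edgeR adjusted p = 0.399 and 0.853).

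**Figure D3:**
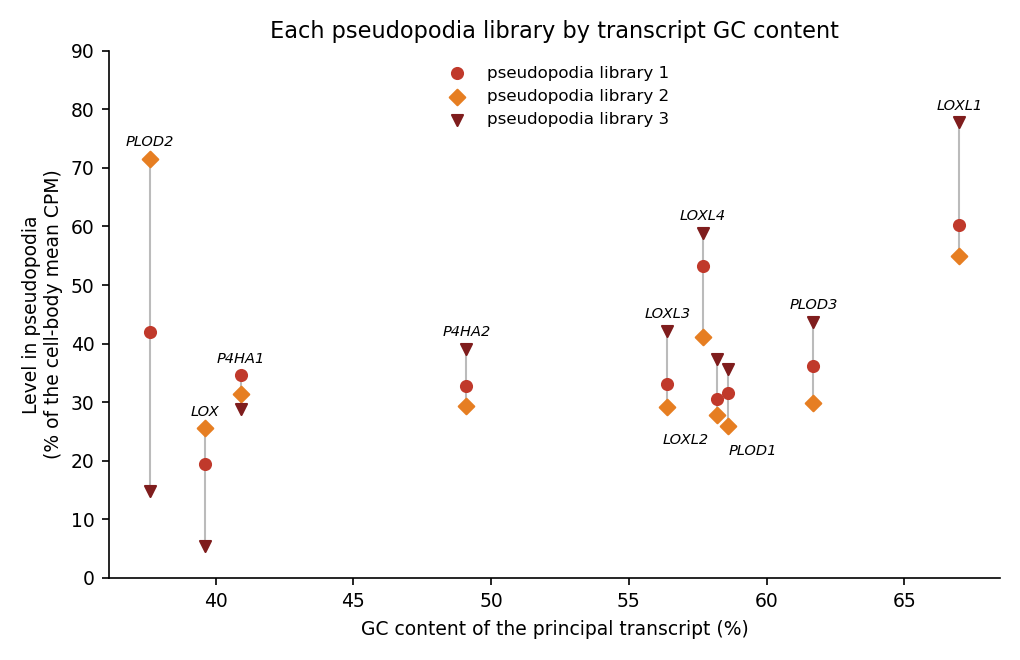
Level of each enzyme in the 3 pseudopodia libraries, as a percentage of its cell-body mean CPM, against the GC content of its principal transcript; grey lines join the libraries of a gene. At GC contents near 40%, library 2 (diamonds) is the highest for LOX and PLOD2 and library 3 (triangles) the lowest, and from 49.1% upward the order is the reverse.

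To compare genes with one another, the deposited TPM values were used, which are scaled by 1 length per gene. These lengths are not given, and they did not follow those of the principal transcripts. In whole cells P4HA2 was above P4HA1 in CPM (185 against 132) and below it in TPM (85.2 against 199.8). Their principal transcripts are 3349 and 2844 bases long. The order of genes below and the family shares therefore depend on the lengths used. In whole cells LOX was the most abundant enzyme mRNA at 1778 ± 80.1 TPM, followed by LOXL1 at 922 ± 31.7, LOXL2 at 679 ± 16.3 and PLOD1 at 339 ± 1.55 TPM (mean ± SD, n = 3). P4HA1, LOXL4 and PLOD3 followed at 199.8, 175 and 134 TPM. P4HA2 and PLOD2, at 85.2 and 84.4 TPM, overlapped, and LOXL3 was last at 38.7 TPM. No other neighbours in that order overlapped. In cell bodies LOXL1, LOX and LOXL2 were at 924 ± 31.7, 889 ± 162 and 756 ± 83.7 TPM. The libraries of LOX overlapped those of both others, while every LOXL1 value lay above every LOXL2 value. PLOD1 stood below them at 358 ± 20.5 TPM and P4HA1 at 188 ± 10.3 TPM. PLOD3 and LOXL4 overlapped at 140.4 and 134 TPM, P4HA2 was at 96.2 TPM, and PLOD2 and LOXL3 overlapped at 43.5 and 36.8 TPM.

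In pseudopodia LOXL1 was clear of all others at 485 ± 69.5 TPM. LOXL2 at 197 ± 22.1 TPM overlapped LOX at 124 ± 78.9 TPM, and LOX overlapped PLOD1 at 91 ± 10.6 TPM. LOXL4, P4HA1 and PLOD3 followed at 55.9, 48.7 and 41.9 TPM, each overlapping its neighbour. P4HA2, PLOD2 and LOXL3 closed the order at 26.5, 15.6 and 10.4 TPM, and PLOD2 overlapped both of the others. LOX was thus first in every whole-cell library, and LOXL1 was first in every pseudopodia library. The place of LOX in pseudopodia differed by library: at 38.3 TPM in library 3 it was below PLOD1, LOXL4, PLOD3 and P4HA1 there.

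The summed TPM of the 10 enzymes was 1078 to 1124 in pseudopodia, 3408 to 3664 in cell bodies and 4332 to 4564 in whole cells. For the lysyl oxidases it was 874 ± 21.7, 2739 ± 121 and 3593 ± 109 TPM in the 3 groups. Lysyl hydroxylases summed to 149 ± 5.96, 542 ± 16.2 and 557 ± 5.53 TPM, and the prolyl 4-hydroxylase alpha chains to 75.2 ± 3.88, 284 ± 12.4 and 285 ± 5.56 TPM. The sums varied little between pseudopodia libraries even though LOX and PLOD2 did. Pseudopodia were below cell bodies in every library for each of the 3 families. Cell bodies and whole cells were apart for the lysyl oxidases, and overlapped for both hydroxylase families.

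Within a family, shares of the summed TPM do not depend on how a library is scaled. They do depend on the length used for each gene, as given above for P4HA1 and P4HA2. Of the lysyl oxidase TPM, LOX made up 16.5%, 22.4% and 4.27% in the pseudopodia libraries, 27.4% to 36.7% in cell bodies, and 48.3% to 50.3% in whole cells. Its mean share was 14.4% ± 9.26, 32.3% ± 4.67 and 49.5% ± 1.04 in the 3 groups (SD, n = 3), with no overlap. The LOXL1 share ran the other way, with 55.5% ± 6.54 of the family's TPM in pseudopodia, 33.8% ± 2.13 in cell bodies and 25.7% ± 0.828 in whole cells. Shares within a family are not independent, since a smaller LOX share makes the others larger. LOXL1 itself was lower in pseudopodia than in cell bodies (log2 fold change -0.64). Transcript GC content was 39.6% for LOX and 67% for LOXL1, and the shares were not corrected for it. LOXL4 made up 4.9% ± 0.253 in cell bodies and 6.4% ± 0.812 in pseudopodia. For LOX, LOXL1 and LOXL4 the two-sided exact permutation p between pseudopodia and cell bodies was 0.1, the smallest that 3 against 3 can give, and 0.3 after adjustment over the 9 shares compared. The design therefore could not bring these differences under 0.05.

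The shares of the other families were closer together. PLOD1 made up 61.2% ± 4.72 of the lysyl hydroxylase TPM in pseudopodia, 66% ± 1.9 in cell bodies and 60.8% ± 0.518 in whole cells. PLOD2 made up 10.7% ± 7.75, 8.07% ± 2.11 and 15.2% ± 0.471, so that its share in pseudopodia spanned those of both other groups. P4HA1 supplied 64.7% ± 4.93 of the alpha-chain TPM in pseudopodia, 66.1% ± 1.4 in cell bodies and 70.1% ± 0.42 in whole cells. Between pseudopodia and cell bodies the exact permutation p for these 3 genes was 0.2, 0.8 and 0.8, and the libraries overlapped for each.

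**Figure D4:**
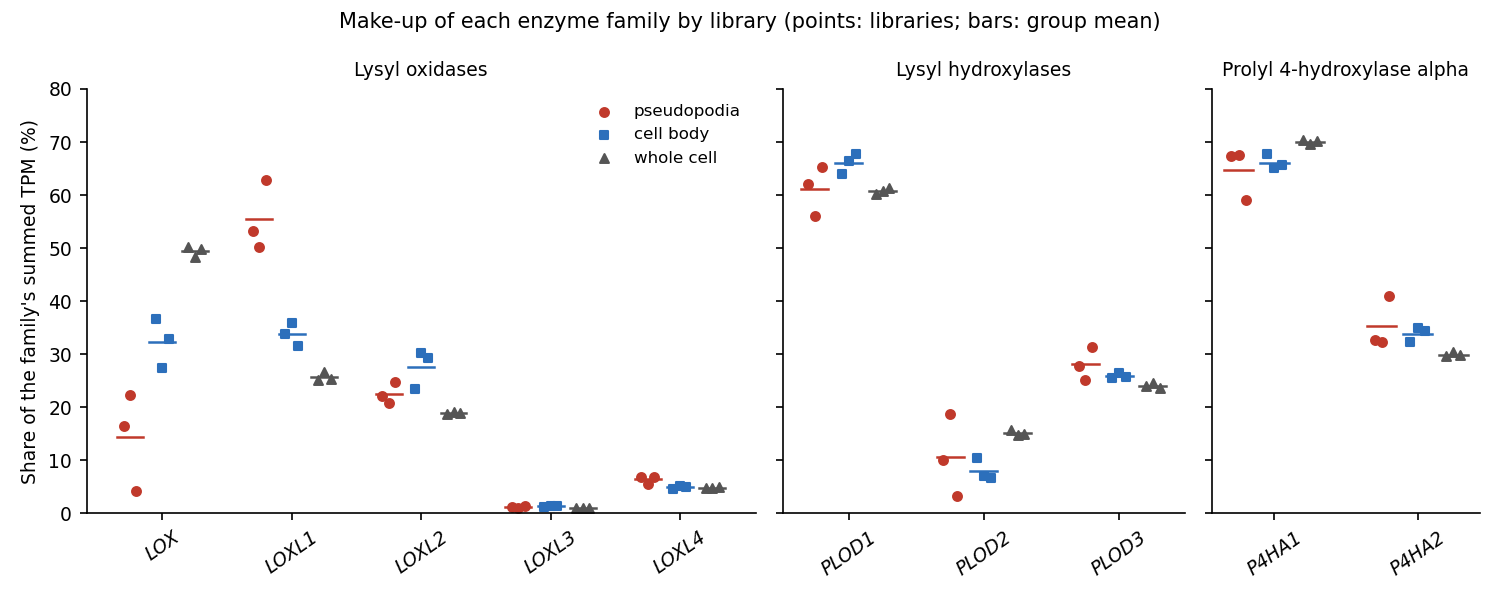
Share of each enzyme in the summed TPM of its family, by library; bars are means of 3 libraries. The LOX share is 48.3% or more in whole cells and 22.4% or less in pseudopodia, and the LOXL1 share runs the other way.

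The partners that modify procollagen beside these enzymes in the ER were mostly lower in pseudopodia as well. Of 14 such genes, 12 were called lower than in cell bodies, 1 was called higher and 1 was not called, with a median log2 fold change of -1.0. Of all genes tested, 19.9% were called lower and 18.6% higher. FKBP14, a prolyl isomerase of the ER, was 4.39-fold lower (9.92 ± 2.22 against 43.6 ± 4.47 CPM). P3H1, the prolyl 3-hydroxylase of collagen I, was 3.15-fold lower (47.4 ± 9.1 against 149 ± 3.25 CPM), and TMEM38B, an ER cation channel, was 3.03-fold lower. P4HB, which pairs with P4HA1 and P4HA2, fell by 0.99 on the log2 scale (569.6 ± 113 against 1134 ± 60.5 CPM, edgeR adjusted p = 0.000273). The gene that was not called was P4HA3, the third alpha chain, at 0.506 ± 0.04 CPM in pseudopodia and 0.673 ± 0.0732 CPM in cell bodies.

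CRTAP was the exception in that group. It encodes the subunit that holds P3H1 and cyclophilin B (PPIB) together, and it was at 1912 ± 326 CPM in pseudopodia, 503 ± 6 CPM in cell bodies and 454 ± 13.9 CPM in whole cells. The log2 fold change against cell bodies was 1.93 ± 0.136 SE (edgeR adjusted p = 1.54e-06), while P3H1 was at -1.65 and PPIB, named here for its place in that complex after its value was seen, at -0.98. Against whole cells 11 partners were called lower and CRTAP was again the one called higher (log2 fold change 2.07). There, 33.1% of all genes tested were called lower and 27.9% higher. Between cell bodies and whole cells 2 of the 14 were called, PPIB (0.70) and the collagen chaperone SERPINH1 (0.37), both higher in cell bodies. In that comparison 38.6% of all genes were called.

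Genes of procollagen processing and fibril assembly were called lower than in cell bodies in 8 of 13 cases and higher in 0, with a median log2 fold change of -1.06. The shares over all genes tested were 19.9% lower and 18.6% higher. POSTN, the matricellular protein periostin, was at 68 ± 59.6 CPM in pseudopodia, 601 ± 169 CPM in cell bodies and 2133 ± 12.7 CPM in whole cells. That is a stepwise order like that of LOX, with whole cells above both fractions. PCOLCE, which speeds up removal of the collagen C-propeptide, was 3.41-fold lower than in cell bodies, and its paralogue PCOLCE2 was 3.07-fold lower. TLL2, a protease of the BMP1 type, was called lower at under 1 CPM (0.085 ± 0.0291 against 0.288 ± 0.106 CPM). BMP1 itself, which cleaves the LOX propeptide, fell by 0.85 on the log2 scale (edgeR adjusted p = 0.000835). It was not among the genes the naming rule selects, and was chosen after its value was seen.

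Of the substrates, 12 collagen and elastin genes were tested. Relative to cell bodies, 9 were called lower (19.9% of all genes) and 0 higher (18.6% of all genes), with a median log2 fold change of -0.87. The 3 that were not called were COL5A1 (-0.01), COL4A1 (-0.26) and COL6A3 (-0.29), named after their values were seen. COL1A1 was at 17405 ± 2773 CPM in pseudopodia and 24371 ± 3289.8 CPM in cell bodies, a log2 fold change of -0.49 ± 0.146 SE (edgeR adjusted p = 0.0217). COL3A1 was at 2219.9 ± 453 against 10325 ± 979 CPM (-2.22 ± 0.159 SE, edgeR adjusted p = 1.68e-06). COL5A2 was 3.68-fold lower, COL6A1 2.56-fold lower and COL11A1 2.55-fold lower. Against whole cells 8 of the 12 were called lower, as were 33.1% of all genes. Between cell bodies and whole cells 1 was called, elastin (ELN), higher in cell bodies by 0.69 on the log2 scale. The share of all genes called there was 38.6%.

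ER chaperones and the translocon, which serve all secreted proteins, were called lower than in cell bodies for 14 of 18 genes and higher for 0, with a median log2 fold change of -1.31. Over all genes tested the shares were 19.9% lower and 18.6% higher. HSPA5, the main ER chaperone, was 5.41-fold lower (105 ± 16.9 against 569.7 ± 12.9 CPM). RPN2, of the oligosaccharyl transferase, and PDIA3, a disulphide isomerase, were each 4.01-fold lower, and PDIA4 was 3.65-fold lower. The copper-handling genes had 2 of 6 called lower, the importer SLC31A1 (-1.41) and the Golgi pump ATP7A (-1.06). That count stands beside the same 19.9% of all genes.

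The 2-oxoglutarate hydroxylases that act outside the ER were called in both directions. Of 8 tested, 2 were called higher in pseudopodia than in cell bodies, 1 lower and 5 were not called, with a median log2 fold change of -0.24. Among all genes tested 18.6% were called higher and 19.9% lower, and the list was not clearly apart from these shares. HIF1AN, which hydroxylates an asparagine of hypoxia-inducible factors, was at 113 ± 26.1 against 59.6 ± 9 CPM (0.93 ± 0.173 SE, edgeR adjusted p = 0.00144). JMJD6, a lysyl hydroxylase of nuclear proteins, was at 57.7 ± 10.6 against 37.9 ± 4.76 CPM (0.60 ± 0.155 SE, edgeR adjusted p = 0.00984). EGLN2, a prolyl hydroxylase of hypoxia-inducible factors, was lower at 0.592 ± 0.186 against 4.34 ± 0.135 CPM.

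Other hypoxia-inducible genes went both ways. Of 19, 7 were called lower and 3 higher in pseudopodia than in cell bodies, with a median log2 fold change of -0.22. Calls over all genes tested were 19.9% lower and 18.6% higher. The glucose transporter SLC2A1 (-1.66) and the peptide hormone ADM (-1.16) were lower, and the histone demethylase KDM3A (1.01) and the glycolytic regulator PFKFB3 (1.01) were higher. Between cell bodies and whole cells 10 of the 19 were called higher in cell bodies and 3 lower, beside 18.1% and 20.5% of all genes. VEGFA, the vascular growth factor, was at 399.9 ± 23.8 CPM in cell bodies and 131 ± 0.663 CPM in whole cells, and ADM was at 46.3 ± 12.3 and 427 ± 16.3 CPM. In that comparison 1 of the 10 enzymes was called, a count that changed widely with the fit, as given above and below. By CPM values without overlap, 3 enzymes were lower in cell bodies and 7 higher, a split that changed on the TPM scale as given above. Of the hypoxia-inducible genes, 3 were lower and 13 higher in CPM. Those orderings were shown by 34.9% and 30.0% of all genes tested. Whether the enzymes differ from the hypoxia-inducible genes in these counts was not tested.

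**Figure D5:**
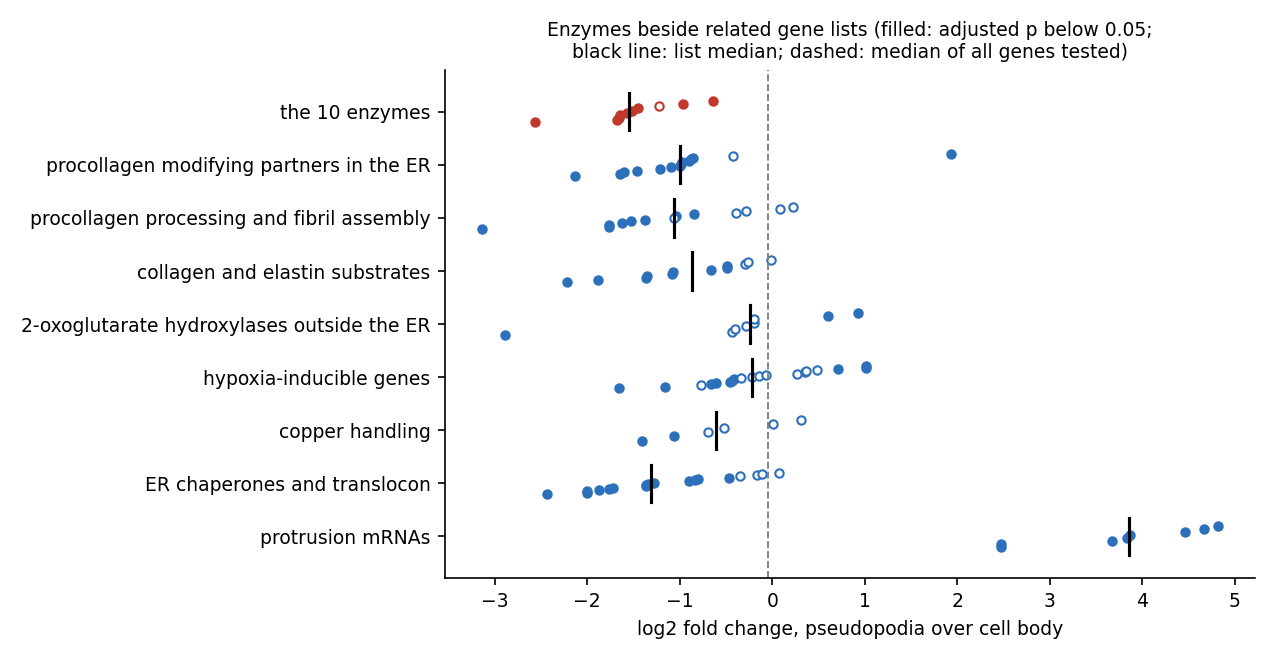
Log2 fold change between pseudopodia and cell bodies for the 10 enzymes (red) and the genes of 8 related lists (blue), with filled points where the edgeR adjusted p was below 0.05, black lines for list medians and a dashed line for the median of all genes (-0.05). The enzymes, their ER partners and the ER chaperones have medians of -1.55, -1.0 and -1.31, and the isolated blue point at 1.93 is CRTAP.

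Protrusion mRNAs were at the other extreme. All 8 genes of that list were called higher in pseudopodia than in cell bodies, as were 18.6% of all genes. They ran from 2.47 to 4.82 on the log2 scale, led by the kinesin KIF1C (28.27-fold). Part of that list was chosen on these samples, so its direction is no independent evidence. Between those and the 10 enzymes no values overlapped, the highest enzyme being LOXL1 at -0.64.

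The coding starts shown above can be set against the measured differences. Over the 621 genes whose densest stretch of 10 codons held 8 or more middle-T codons, LOXL4 and PLOD3 among them, the median log2 fold change between pseudopodia and cell bodies was -0.84, and 55.9% were called lower. Over the other 13302 genes the median was -0.04, and 20.7% were called lower. With the lower bar of 5, which all 10 enzymes reach, 32.1% of 5598 genes were called lower, and of 8325 genes under it 15.6%. Between cell bodies and whole cells the medians at the bar of 8 were 0.06 and 0.03. Within the 10 enzymes the density did not order the differences: LOXL4, with 8, fell by 0.97 on the log2 scale, and LOX, with 6, by 2.57. These are descriptions of sequence letters, and signal sequences themselves were not called.

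The genes most like each enzyme were sought among 9003 genes with a mean of at least 3 on the log2 CPM scale. Likeness was the root-mean-square difference in log2 CPM over the 9 libraries after centring each gene. Nearest to LOX were the growth factor HGF (0.170), the hyaluronan link protein HAPLN1 (0.177) and the amino acid transporter SLC38A2 (0.217). Nearest to PLOD2 were ZBTB1 (0.089), GABPA (0.136) and ADGRL4 (0.141), and to P4HA1 the pseudogene PDIA3P1 (0.084), JKAMP (0.097) and ERLIN1 (0.097). The other enzymes had closer neighbours, PLOD3 with TMEM109 at 0.030, PLOD1 with QSOX1 at 0.046 and P4HA2 with PCOLCE2 at 0.054. QSOX1, a secreted sulfhydryl oxidase, was also nearest to LOXL2 (0.060). No enzyme was among the 3 nearest genes of another.

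Several of the enzyme genes overlap other genes, and the strand setting of the counting is not given in the sources used here, so reads of such pairs may have gone to either. P4HA2 overlaps PDLIM4 on the opposite strand, which had 95.7 CPM in pseudopodia, 77.6 in cell bodies and 35.1 in whole cells. LOXL3 overlaps DOK1 (46.3, 36.7 and 28.7 CPM) and HTRA2 (20.2, 16.4 and 12 CPM), both on the opposite strand and both with their highest mean in pseudopodia, where LOXL3 had its lowest. PLOD3 overlaps ZNHIT1 (58.6, 49.5 and 34.7 CPM). LOXL2 overlaps ENTPD4 on the same strand (37.8, 53.3 and 64 CPM). The antisense transcript LOXL1-AS1 was nearly level at 12.2, 11.2 and 11.7 CPM, and SRFBP1, opposite to LOX, stayed at or below 4.91 CPM.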

How the data were processed

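RNA sequencing data of 9 libraries, 3 per group, were used. The authors deposited whole-number read counts, made with featureCounts per the labels, and TPM for each library, which follow from the same counts by 1 length per gene. The submitters' processing notes name GRCh38 and DESeq2. The aligner, the annotation, the strand setting and the versions were not given in the sources used. One line without values was left out. With edgeR 4.0.16 under R 4.3.3, counts were filtered by group (filterByExpr), scaled by TMM and put through the robust quasi-likelihood test. The filter kept 19426 genes and all 10 enzymes. All 9 libraries entered 1 fit, and Benjamini-Hochberg adjusted p-values over all genes were called under 0.05. P-values may be too small where pseudopodia, the group with the widest spread, are compared. Standard errors were taken from the test statistic. Shares within families were compared by a two-sided exact permutation test. The edgeR steps were tested on simulated data.

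The enzymes and gene lists were chosen with earlier results of these data known. Named beside the enzymes were, per list and comparison, up to 4 called genes with the largest change and no overlap between groups, and COL1A1, P4HB and RAB13. Alternatives were DESeq2 1.42.0 and its size factors, upper-quartile factors, no filter, a filter of 5 CPM in 3 libraries, omission of mitochondrial and ribosomal protein genes, limma 3.58.1 with voom or on log2(TPM + 1) and log2(TPM + 0.1), a replicate block, 6 libraries per fit, leaving out each library, and, added later, GC and length correction.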

Additional observations from a re-analysis of the deposited data

How the results depend on the processing

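Of 180 values each (18 alternatives for 10 enzymes), 172 kept direction and side of the threshold between pseudopodia and cell bodies, and 8, all of PLOD2, passed in addition. Against whole cells 177 did and 3, the losses of LOXL1 given above, did not. Between cell bodies and whole cells 142 did, 11 lost a call, 20 gained one and 7 turned in sign. That last count of enzymes called, 1, became 0 with upper-quartile factors, with DESeq2 and with the replicate block, 2 without mitochondrial and ribosomal protein genes and with no filter, 3 with GC and length correction, 7 with the 6 libraries compared and 8 with limma-voom. Leaving out a library gave 0 to 1. Genes called against whole cells with a filter of 5 CPM, which tests fewer genes, were 7516 for pseudopodia (11842 as reported) and 4667 for cell bodies (7501 as reported). For cell bodies limma-voom gave 11967, and the cause was not tested.

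The turned log2 values between cell bodies and whole cells were all small. LOXL3 was at -0.071 on log2(TPM + 1), -0.073 on log2(TPM + 0.1) and -0.051 with GC and length correction. P4HA1 was at -0.089 and -0.09 on the TPM scales, and with the correction LOXL1 was at -0.045 and PLOD2 at 0.046. On log2(TPM + 1) the genes called in pseudopodia relative to cell bodies were 2310 higher and 5907 lower (3605 and 3870 as reported), 3227 and 9687 against whole cells (5412 and 6430), and 2643 and 5898 in cell bodies against whole cells (3521 and 3980). The median of all genes was -0.17, -0.34 and -0.15 there, and -0.31, -0.56 and -0.23 on log2(TPM + 0.1). Relative to those medians the direction of LOXL3 and P4HA1 is that of the CPM fit. Family shares turned in sign where a library was left out: PLOD2 between pseudopodia and cell bodies (2.62 points as reported, -1.41 to 6.33), P4HA1 there (-1.45, -2.94 to 1.4), PLOD1 between pseudopodia and whole cells (0.339, -1.74 to 2.91) and LOXL4 between cell bodies and whole cells (0.0384, -0.0752 to 0.175).

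Libraries share replicate numbers across groups. The deviations of same-numbered libraries correlated at 0.0798, -0.00307 and 0.0901 between pseudopodia and cell bodies, and no pair of groups passed 0.1 throughout. The main fit took the numbers as names, although this check cannot exclude that they mark pairs. Not every library correlated best with its own number. With the replicate block 6920, 11494 and 6798 genes and 10, 10 and 0 enzymes were called in the 3 comparisons. No enzyme count was limited by depth, the lowest being 859.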
